A study of Homo sapiens with 2 samples.

Results

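The genes described here encode the kinases that drive the cell cycle and the enzymes that switch them on and off: the cyclin-dependent kinase (CDK) genes CDK1, CDK2, CDK4 and CDK6, the CDC25 phosphatase genes CDC25A, CDC25B and CDC25C, and the WEE kinase genes WEE1 and PKMYT1. Members were chosen by name: every probe set annotated with only 1 of these symbols was taken, which gave 25 probe sets for 9 of the 19775 genes named on the array. Eol1, a human leukaemia cell line with eosinophilic features that carries the FIP1L1-PDGFRA fusion kinase, was either left without drug or given 100 nM Glivec for 4 h. Glivec is imatinib, an inhibitor of the ABL, KIT and PDGF receptor kinases. Both groups therefore are the same line in the same serum-containing medium with the same wash before RNA extraction. The treatment that separates them is the drug, and each also had its own culture and array. Total RNA of each was labelled with biotin and hybridised to an Affymetrix array, 2 arrays in all and 1 per group. A single line and 1 culture per group limit what the groups can stand for.

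CDK1, CDK2, CDK4 and CDK6 are active only when bound to a cyclin. CDK4 and CDK6 act with D-type cyclins in G1, CDK2 with cyclins E and A around S phase, and CDK1 with cyclins A and B at entry into mitosis. WEE1, a nuclear kinase, and PKMYT1, its membrane-bound relative, add inhibitory phosphates to CDK1, and WEE1 also acts on CDK2. The CDC25 phosphatases take these phosphates off, CDC25A from G1 onward and CDC25B and CDC25C mainly around entry into mitosis. In haematopoietic cells, growth factor signalling affects how much cyclin D and CDC25A is present, and much of the control of CDC25 and WEE1 lies at the protein level, which an RNA array does not measure.

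The values are MAS5 signals, linear intensities with 1 value per probe set, which the authors had scaled so that the trimmed mean was 100.014 on each array. A floor of 13.7, the median of all non-control signals, was set, and a ratio with 1 array under it is a bound. Each gene was represented by its brightest probe set, and 12705 genes had a signal above the floor on at least 1 array. Differences are log2 ratios of Glivec over untreated, and the threshold for counts was 2-fold, a log2 ratio of 1 in size. A single array per group gives no replicate check, so the values carry no test and no p-value. As a partial error, log2 ratios of probe sets to the same gene were compared, and their pooled SD was 0.325 over 5603 genes. It holds no variation between cultures.

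The arrays as a whole set the background for the members. The median log2 ratio of all measured genes was 0.097. The 18 hybridisation spike-in probe sets had a median log2 ratio of 0.74, from 0.42 to 0.89. Scaling to them put the median of all genes at -0.59. Every difference below is therefore set against most other genes and not against an absolute amount. Hybridisation controls give no amount of RNA per cell, so values with spike-in scaling are an alternative scaling and not an absolute amount either. The cause of the spike-in difference was not tested. Genes at least 2-fold higher made up 54.4% of all genes past 2-fold, against 42.2% with quantile normalization, 39.6% with median centring, 39.9% after loess and 1.72% with spike-in scaling. The 3' over 5' signal ratio was 1.04 with Glivec and 0.925 without for GAPDH. Of 7 eosinophil markers with a probe set of 1 gene, 4 were measured. PRG2, with signals of 6302 with Glivec and 4744 without, and RNASE2 were above the floor on both arrays. EPX was above it only with Glivec (27.2 against 12.6) and CLC only without (13.2 against 19.4). IL5RA, PRG3 and SIGLEC8 were under the floor on both arrays, and all 5 such myeloid markers were measured on both. Of the 20 such markers of T and NK, B, erythroid, epithelial and fibroblast cells, 8 were measured, and the summed signals of each type lay between 38.6 and 111.6 with Glivec and between 32.1 and 87.9 without. Each type had a measured marker. NCAM1, CD79A and KRT18 were above the floor on both arrays, and CD79A was the brightest of the 8. By the probe sets that represent their genes, HBB, KRT8 and DCN were above it only with Glivec, and CD3E and KLRD1 only without. The remaining markers, among them CD3D, MS4A1, ALAS2, EPCAM and COL1A1, were under the floor on both arrays by those probe sets. The summed signals instead took each marker's brightest probe set of any suffix. The fibroblast sum of 87.9 and the erythroid sum of 32.1, both without drug, therefore each include at least 1 _x_at probe set above the floor. The sums do not show which marker it belongs to. The part of these cell types in the results was not tested.

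CDC25A and CDC25C, both CDC25 phosphatase genes, stood at opposite ends, and the other 7 members lay within 1.5-fold as deposited. CDC25A was 3.46-fold lower with Glivec and CDC25C 3.20-fold higher, by their brightest probe sets. So 1 of 9 members was at least 2-fold higher, where 3.13% of all measured genes were, and 1 of 9 at least 2-fold lower, where 2.63% of all were. In RNA from whole cultures, a different share of cells in a cell cycle phase and a different amount of RNA per cell cannot be told apart. The median log2 ratio of the 9 members was 0.13, close to that of all genes. Past 1.5-fold in either direction were 2 of the 9, where 21.8% of all genes were.

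**Figure D1:**
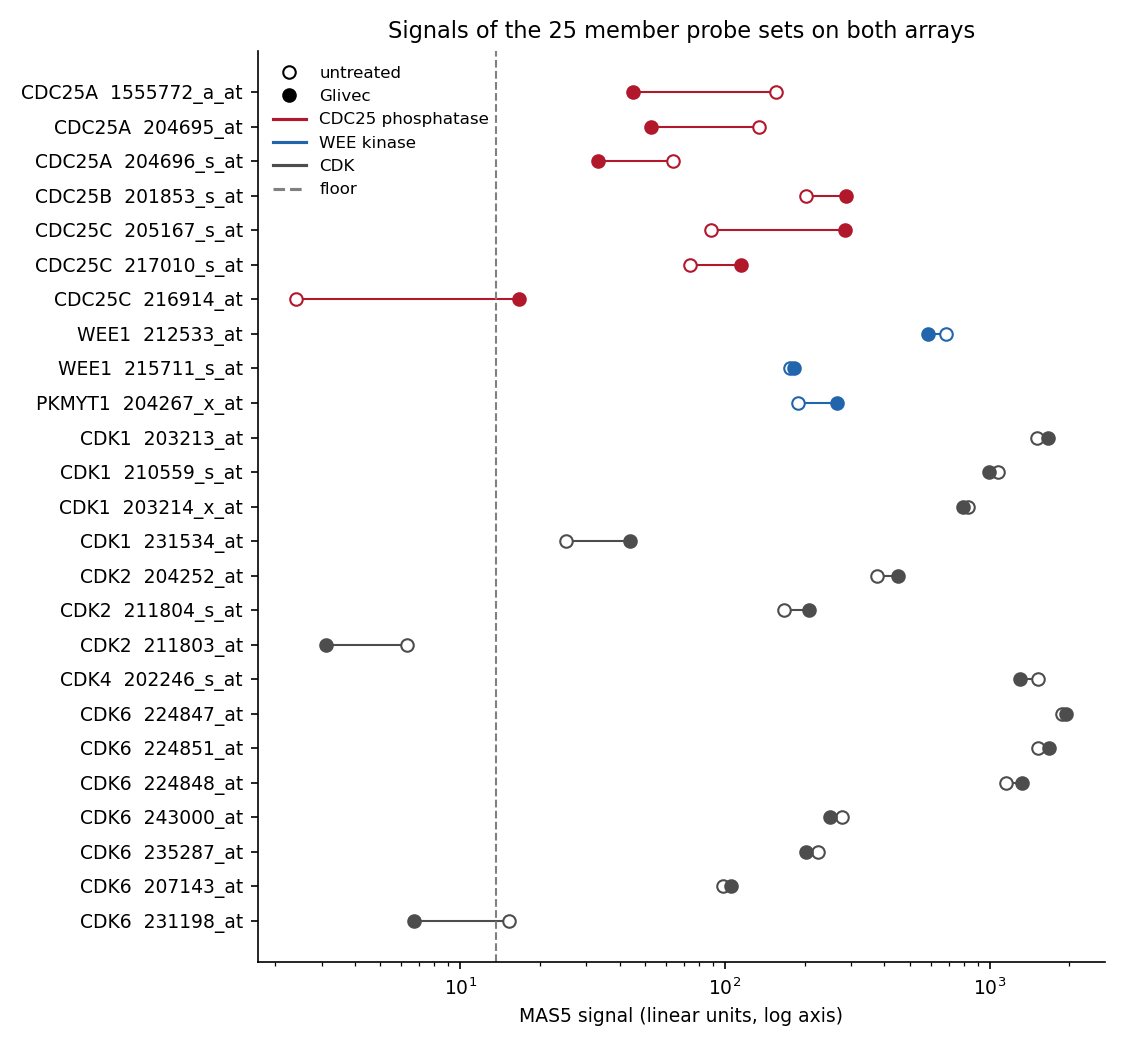
MAS5 signals (linear units on a log axis) of the 25 probe sets of the 9 genes, with open circles for the untreated array, filled circles for the Glivec array, colours for the enzyme class and a dashed line at the floor of 13.7. All 3 CDC25A probe sets were lower with Glivec and all 3 CDC25C probe sets higher, while the paired circles of the bright CDK probe sets nearly coincide.

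CDC25A encodes the phosphatase that activates CDK2 complexes from late G1 and is needed for entry into S phase. Its brightest probe set, 1555772_a_at, had a signal of 44.99 with Glivec and 155.5 without. Probe set 204695_at had 52.5 with Glivec and 134.6 without, and 204696_s_at had 33.1 and 63.8. All 3 were above the floor on both arrays and lower with Glivec. The log2 ratios were -1.79, -1.36 and -0.95, with a mean of -1.37 ± 0.42 (SD over 3 probe sets of 1 sample pair). The brightest probe set lay 5.50 pooled SDs from 0, and CDC25A held rank 60 from the low end among 12705 genes. The ratio depends on the dim Glivec signals: with the floor at the 75th percentile it became a bound of -0.84, short of 2-fold. It kept its sign in all 10 alternatives that gave a ratio and was past 2-fold in 9 of them, from -2.53 with spike-in scaling to -1.36 with only plain _at probe sets.

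The stretch before the CDC25A start is shown because this is the member that was at least 2-fold lower with Glivec. The sequence covers the 250 bases before the start in RefSeq (GRCh38.p14, chr3:48188418-48188667, minus strand, written 5′ to 3′ along the gene). Capitals mark CCAAT in its reverse form, which NF-Y binds, and TTTNNCGC, the core of E2F sites.
CDC25A: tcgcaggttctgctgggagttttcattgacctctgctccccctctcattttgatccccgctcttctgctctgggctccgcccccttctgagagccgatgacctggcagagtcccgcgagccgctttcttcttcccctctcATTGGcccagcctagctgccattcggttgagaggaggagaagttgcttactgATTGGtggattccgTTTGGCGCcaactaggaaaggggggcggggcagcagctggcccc
CCAAT matched 2 times on the opposite strand, starting 110 and 58 bases before the start, and TTTNNCGC matched once on the gene's own strand, starting 44 bases before it. Over all 35116 promoter entries, searched on both strands, 32.0% held CCAAT and 5.92% held TTTNNCGC. The letters describe the sequence and are not a measured site.

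CDC25C encodes the phosphatase that acts on CDK1 with cyclin B at the entry into mitosis. Its brightest probe set, 205167_s_at, had a signal of 283.9 with Glivec and 88.8 without. Probe set 217010_s_at had 114.7 with Glivec and 73.5 without. The dim 216914_at had 16.7 with Glivec and 2.40 without, so that it is a bound of at least 1.22-fold higher. All 3 were higher with Glivec as deposited. The size was not shared: the log2 ratios of the probe sets above the floor on both arrays were 1.68 and 0.64, with a mean of 1.16 ± 0.73 (SD over 2 probe sets of 1 sample pair). By its brightest probe set CDC25C held rank 36 from the high end among 12705 genes. The call of 2-fold rests on that probe set. It was 0.87 with the mean over the gene's probe sets and 0.29, a bound, with only plain _at probe sets. With spike-in scaling it was 0.94, and there the second probe set was at -0.10.

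**Figure D2:**
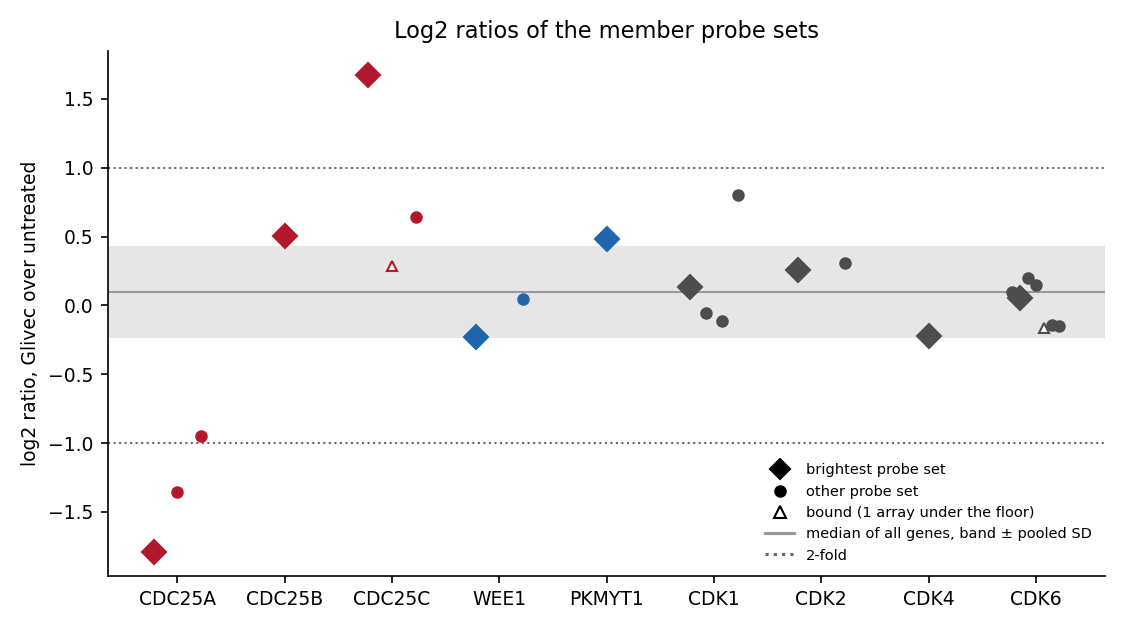
Log2 ratio of Glivec over untreated for each probe set of the 9 genes, with diamonds for the brightest probe set, circles for the others and open triangles for bounds. The grey line and band are the median of all genes, 0.097, and the pooled SD of 0.325 around it, and dotted lines mark 2-fold. The brightest CDC25A and CDC25C probe sets lie beyond 2-fold on opposite sides, as does a second CDC25A probe set, at -1.36. The third CDC25A probe set, at -0.95, and the second of CDC25C, at 0.64, do not reach it.

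CDC25B encodes the phosphatase often described as the starter of mitosis, which acts at the centrosome before CDC25C. Its only probe set, 201853_s_at, had 287.4 with Glivec and 202.7 without. The log2 ratio was 0.50, which is 0.41 above the median of all genes and 1.55 pooled SDs from 0, but -0.23 with spike-in scaling. A common scaling factor cancels when ratios of members are compared: the log2 ratio of CDC25C exceeded that of CDC25A by 3.47, and that of CDC25B exceeded that of CDC25A by 2.29. By its second probe set, at 0.64, CDC25C lay close to CDC25B. All 3 CDC25A probe sets lay below every probe set of the other 2 phosphatase genes.

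Short stretches of the CDC25C and CDK1 promoters are shown because these genes of the entry into mitosis share the letters TTTGAA. They are the letters of the cell cycle genes homology region (CHR), an element that the MuvB complex binds. A match of the letters is not a measured site. The coordinates are those of RefSeq, GRCh38.p14. The CDC25C stretch is chr5:138331817-138331846 on the minus strand, and the CDK1 stretches are chr10:60778158-60778187, chr10:60778397-60778426 and chr10:60778448-60778477 on the plus strand. Capitals mark those letters, CCAAT in either form and TTTNNCGC.
CDC25C: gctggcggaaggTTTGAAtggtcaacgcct
CDK1 upper: gagtataataaaTTTGAActgtgCCAATgc
CDK1 middle: ctgATTGGctgcTTTGAAagtctacgggct
CDK1 lower: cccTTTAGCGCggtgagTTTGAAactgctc
TTTGAA was found before 1 of the 4 CDC25C starts in the table, 30 bases upstream of it, and before both of the 2 CDK1 starts. It was in 13.3% of all promoter entries, and in none of those of CDC25A, CDC25B, CDK4 and CDK6. The middle CDK1 stretch also holds CCAAT in reverse, and the lower one holds TTTNNCGC just before TTTGAA. By their brightest probe sets the log2 ratios of the 2 genes with these letters were 1.68 for CDC25C and 0.13 for CDK1. Over all probe sets above the floor on both arrays the genes overlapped, with 0.64 and 1.68 for CDC25C and -0.11 to 0.80 for CDK1. The overlap came from the dim CDK1 probe set 231534_at, at 0.80, and the brighter CDK1 probe sets lay between -0.11 and 0.13.

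The WEE kinase genes, whose products oppose CDC25, were both within 2-fold. WEE1 had a signal of 582.8 with Glivec and 682.2 without by 212533_at. Its other probe set, 215711_s_at, had 182.2 with Glivec and 176.3 without. The log2 ratios of -0.23 and 0.05 had opposite signs and lay within 1 pooled SD of 0 as deposited. With spike-in scaling they were -0.97 and -0.69. PKMYT1 had 264.7 with Glivec and 189.2 without by its only probe set, 204267_x_at, whose suffix marks probes that may also bind other transcripts. Its log2 ratio was 0.48, but -0.25 with spike-in scaling, and the probe set's cross-binding was not tested. The log2 ratio of PKMYT1 exceeded that of WEE1 by 0.71, and 0.48 for PKMYT1 was close to the 0.50 of CDC25B.

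The 4 CDK genes had bright signals on both arrays and small differences, between -0.22 and 0.25 on the log2 scale. CDK1, the mitotic kinase, had 1660 with Glivec and 1512 without by 203213_at. The next 2 probe sets had 997.8 against 1079 (210559_s_at) and 793.5 against 826.2 (203214_x_at). These 3 bright probe sets of CDK1 gave 0.13, -0.11 and -0.06, on both sides of 0. The dim 231534_at had 43.9 with Glivec and 25.2 without, a log2 ratio of 0.80. With it the mean over CDK1 probe sets other than the cross-binding one was 0.27.

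CDK2, which acts with cyclins E and A, had 449.4 with Glivec and 376.8 without by 204252_at. Probe set 211804_s_at had 207.3 with Glivec and 167.8 without, and 211803_at was under the floor on both arrays, with 3.12 and 6.31. The measured log2 ratios were 0.25 and 0.30, closer together than those of WEE1 or CDC25C, and both were under 1 pooled SD and turned negative with spike-in scaling. CDK2 and CDC25A, kinase and activator in late G1, thus had log2 ratios of opposite sign as deposited, but both were negative with spike-in scaling.

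CDK4, a partner of D-type cyclins, had 1307 with Glivec and 1527 without by its only probe set, 202246_s_at. The log2 ratio was -0.22, lower with Glivec under all 9 alternatives that gave a ratio, from -0.96 to -0.20. It lay 0.32 below the median of all genes. The sequence before the CDK4 start is shown because it is the only member promoter in the table with a CACGTG E-box, the letters bound by MYC with MAX and by related factors. It covers 250 bases (GRCh38.p14, chr12:57752311-57752560, minus strand), with CACGTG in capitals.
CDK4: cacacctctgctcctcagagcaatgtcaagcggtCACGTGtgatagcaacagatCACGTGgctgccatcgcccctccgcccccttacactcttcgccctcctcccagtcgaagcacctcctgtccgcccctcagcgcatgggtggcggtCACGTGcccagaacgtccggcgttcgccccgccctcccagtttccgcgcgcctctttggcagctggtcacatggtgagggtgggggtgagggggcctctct
CACGTG, which reads the same on both strands, matched 3 times, starting 216, 196 and 101 bases before the start, and 6.34% of all promoter entries held it at least once. The letters TTCNNNGAA, bound by STAT factors, were in none of the 14 member promoter entries and in 6.57% of all. TGTTTAC, bound by FOXO factors, was in 1 of the 14, before a CDK1 start, and in 2.98% of all.

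CDK6, the other partner of D-type cyclins, had 7 probe sets, the most of any member. The brightest, 224847_at, had 1946 with Glivec and 1878 without. Probe sets 224851_at and 224848_at had 1680 against 1517 and 1325 against 1153. The dimmer 243000_at and 235287_at had 248.9 against 276.3 and 203.1 against 224.4, and 207143_at had 105.6 against 98.6. The 6 probe sets above the floor on both arrays gave log2 ratios from -0.15 to 0.20, 4 positive and 2 negative, with a mean of 0.03 ± 0.15 (SD over 6 probe sets of 1 sample pair). The seventh, 231198_at, was under the floor with Glivec (6.71 against 15.3). The CDK6 ratio of 0.05 by the brightest probe set turned negative with median centring, loess and spike-in scaling.

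**Figure D3:**
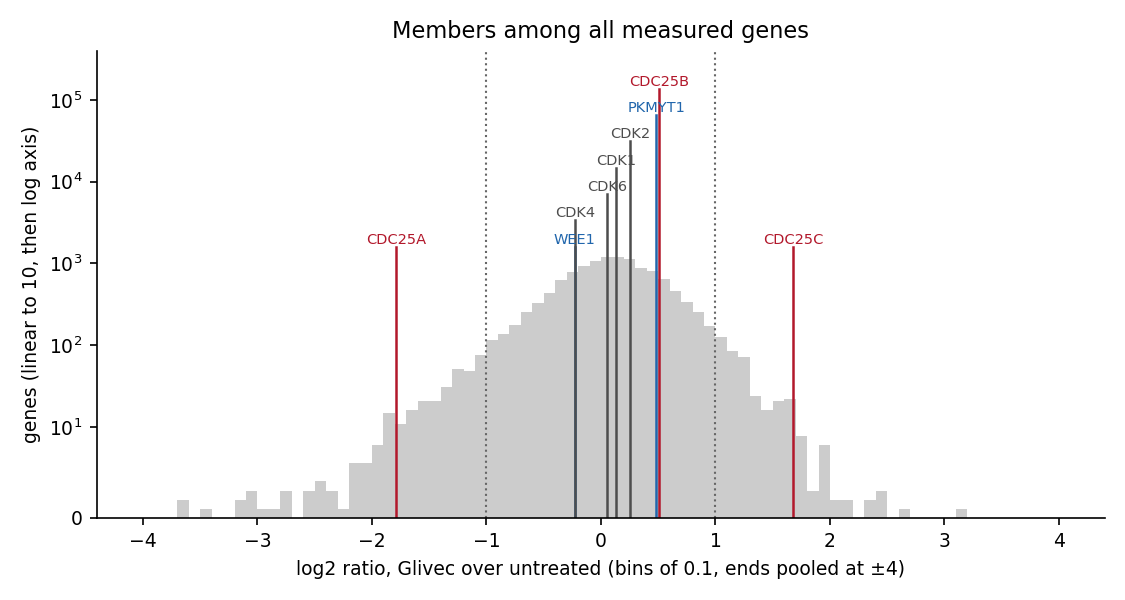
Log2 ratios of Glivec over untreated for all 12705 measured genes (grey histogram in bins of 0.1, vertical axis linear to 10 and log above it) with a line at the ratio of each of the 9 genes, coloured by enzyme class as in the plot of signals. Line heights only separate the labels. CDC25A and CDC25C lie in the tails beyond the dotted 2-fold lines, and the other 7 genes lie in the body of the distribution.

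Counted over probe sets, 22 of the 25 were above the floor on both arrays, 2 on 1 array and 1 on neither. Of the 22, 13 were higher and 9 lower with Glivec as deposited. The CDKs had 8 higher and 5 lower of 13 such probe sets, and none of them differed by 2-fold. Of the 24 with a ratio, 1 was at least 2-fold higher (CDC25C) and 2 at least 2-fold lower (both CDC25A), where 3.18% and 2.51% of all measured probe sets were. With quantile normalization, median centring or loess, 3 were at least 2-fold lower, all of CDC25A. Members' signs depended on scaling: 6 of 9 genes were positive as deposited and with quantile normalization, 5 with median centring and after loess, and 1, CDC25C, with spike-in scaling. Of all genes, 59.0% were positive as deposited.

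**Figure D4:**
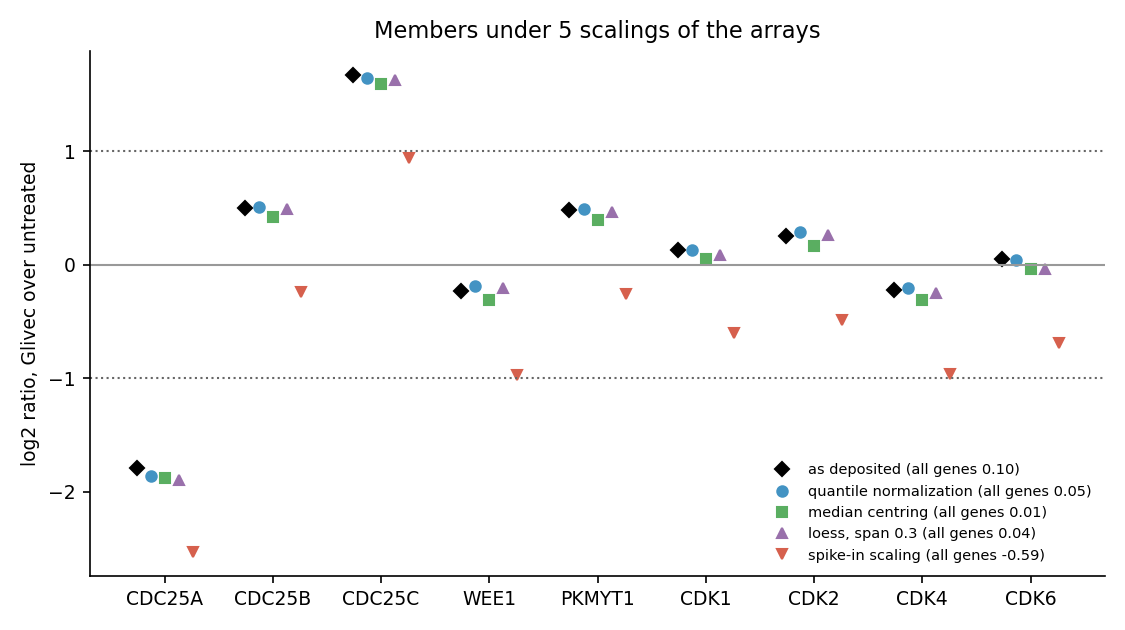
Log2 ratio of each of the 9 genes by its brightest probe set under 5 scalings of the arrays, with the median of all genes under each scaling in the legend and dotted lines at 2-fold. CDC25A stays below -1 under all 5 and CDC25C stays positive, between 0.94 and 1.68, while CDC25B, PKMYT1, CDK1, CDK2 and CDK6 turn negative with spike-in scaling, and CDK6 also with median centring and loess.

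The other genes of the pathway came from 7 lists that name 95 genes. Of these, 90 could be matched to a probe set and 85 were measured. Of these 85, 1 was at least 2-fold higher and 1 at least 2-fold lower, where 3.13% and 2.63% of all genes were, and their median log2 ratio was 0.09. Among the cyclins that partner the member kinases, CCND3, which encodes cyclin D3, a partner of CDK4 and CDK6, had 856.9 with Glivec and 1924 without, 2.24-fold lower. None of the other 7 measured cyclins in the list reached 2-fold, and the list median was -0.31 over 8 genes. Among the CDK inhibitors, CDKN1C, which encodes p57, had 394.1 with Glivec and 105.5 without, 3.74-fold higher, with 3 other probe sets between 1.07 and 1.62 on the log2 scale. All 5 measured genes of the list were positive as deposited, where 59.0% of all genes were. Their ratios ran from 0.04, under the median of all genes of 0.097, to 1.90. The list median was 0.52, but -0.22 with spike-in scaling. CDKN2A and CDKN2B were under the floor on both arrays.

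In the 5 remaining lists no gene reached 2-fold by its brightest probe set. Of the 181 probe sets of their measured genes 3 dimmer ones did, and their genes were named after their values were seen. CHEK1, a checkpoint kinase gene, had 33.4 with Glivec and 15.5 without by 1 of them, but was at 0.35 by its brightest. CLSPN, which encodes the CHEK1 adaptor claspin, had 34.6 and 7.56 by the second, a bound, but was at -0.24 by its brightest. The third belongs to PLK3. Other CDKs and the CDK-activating kinase had a median of -0.11 over 14 genes. As deposited 3 were positive and 11 negative, where 59.0% of all genes were positive. CDK19, a kinase of the Mediator complex, was at 0.69 and MNAT1, a subunit of the CDK-activating kinase, at -0.41. CKS subunits, pocket proteins and E2F factors had a median of 0.02 over 15 genes. TFDP2, a dimer partner of E2F, was at 0.94, with other probe sets from 0.30 to 0.84, and E2F6, a repressor of the family, at -0.92. The checkpoint list had a median of 0.00057 over 11 genes, with the clamp subunits RAD1 at -0.74 and RAD9A at 0.56.

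Regulators of CDC25 and WEE1 protein had a median of 0.21 over 25 genes, but -0.53 with spike-in scaling. As deposited 18 of the 25 were positive, where 59.0% of all genes were. CUL1, the scaffold of the ubiquitin ligases that mark CDC25A and WEE1 for breakdown, was at -0.89 by 1 probe set and -0.22 by another. The kinase gene PLK3 was at 0.76, with dim signals of 25.3 for Glivec and 14.98 for untreated cells, and its other probe set, under the floor with Glivec, was at a bound of -1.10. MuvB, B-MYB and FOXM1 act on promoters of late cell cycle genes, and their list also held CENPF. The list median was 0.23 over 7 genes, but -0.50 with spike-in scaling. With only plain _at probe sets, which leaves out some of the genes, it was -0.0087. The MuvB subunit gene LIN37 was at 0.87 and LIN54, which encodes the subunit that binds TTTGAA, at -0.56. Neither had another measured probe set.

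**Figure D5:**
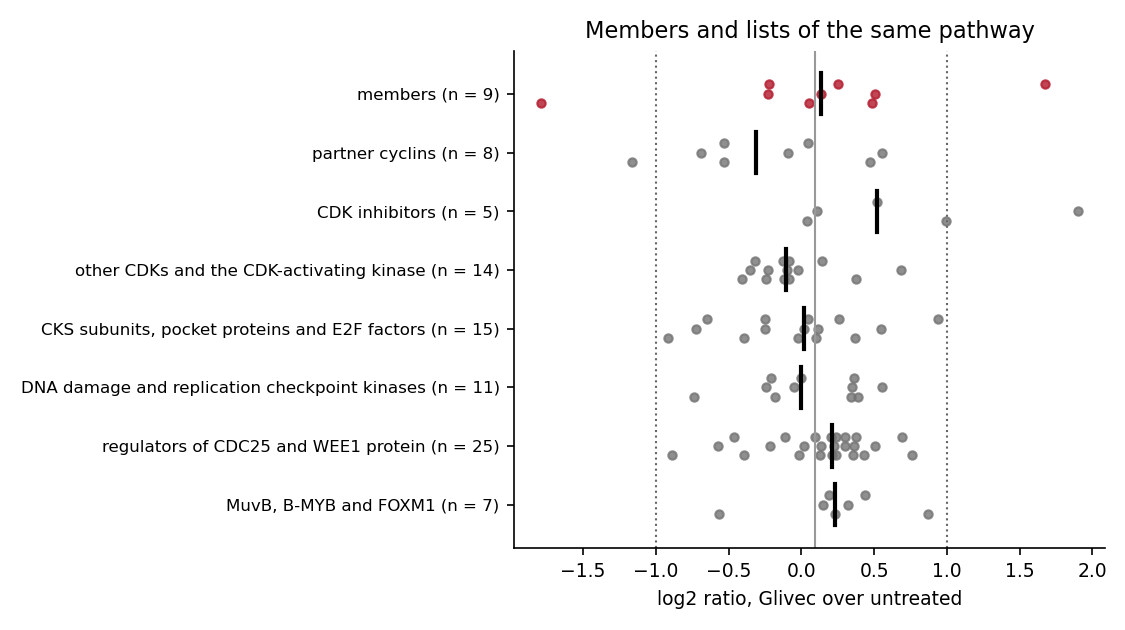
Log2 ratios of the 9 members (red) and of the measured genes of 7 pathway lists (grey), 1 point per gene, with a black bar at each median, a grey line at the median of all genes (0.097) and dotted lines at 2-fold. Beyond 2-fold lie CDC25A and CDC25C among the members, CCND3 among the cyclins and CDKN1C among the CDK inhibitors.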

How the data were processed

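Expression was measured on 2 Affymetrix arrays, Glivec and untreated. The authors deposited linear intensities, which the submitters' processing notes credit to MAS5 (version not given in the sources used here), and detection calls were not used. Of 54675 probe sets, 41091 had 1 gene symbol in the platform's annotation, which can be old, 1801 had several and 11783, with 62 controls, had none. Entrez identifiers matched 41037 to the gene table of GRCh38.p14, with 0 symbols changed. Signals under the floor were raised to it before log2. Genes took the probe set of highest mean signal, with _x_at only where no other was present. Depth does not apply to arrays, whose number limits precision.

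Members, lists and motifs were chosen with earlier results of these data known. List genes named with a ratio were those past 2-fold, or otherwise the 2 largest ratios in size. Alternatives were quantile normalization, median centring, loess (span 0.3), spike-in scaling, other floors (40th, 60th or 75th percentile of signals), a pseudocount of 0.646 in place of the floor, the mean over probe sets, only plain _at probe sets, and thresholds of 1.5-fold and 3-fold. The calculation was tested on simulated signals. Promoter sequences come from RefSeq; the table held CDC25A, CDC25B, CDC25C, CDK1, CDK4 and CDK6. Python 3.11.15, numpy 2.4.6, pandas 2.3.3, statsmodels 0.14.6 and matplotlib 3.10.9 were used.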

Additional observations from a re-analysis of the deposited data

How the results depend on the processing

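No paired analysis was possible because the design holds 1 array for each group, which also leaves no replicate to omit. Each alternative was planned. A value counts as moved past the pooled SD between probe sets, and a count past 1.5 times. The causes were not tested, except that thresholds and floors act by construction. With quantile normalization and loess none of the counts of members, member probe sets, list genes and all genes, and none of the medians, moved by this measure, although member probe sets at least 2-fold lower went from 2 to 3. The count of members at least 2-fold higher was 0 for spike-in scaling, for averaged probe sets and for plain _at probe sets alone, and the count lower was 0 with the floor at the 75th percentile. Member probe sets at least 2-fold higher numbered 0 with spike-in scaling, 2 without a floor and 3 at 1.5-fold, and those lower 0 with the 75th percentile floor and 1 at 3-fold. With spike-in scaling the members' median was -0.60, and list medians were -1.05 for cyclins, -0.22 for CDK inhibitors, -0.85 for other CDKs, -0.72 for CKS, pocket and E2F genes, -0.74 for checkpoint genes, -0.53 for regulators of CDC25 and WEE1 and -0.50 for MuvB, B-MYB and FOXM1; 17 list genes were at least 2-fold lower, and of all genes 43 were higher and 2461 lower. With median centring 2 list genes were at least 2-fold lower. The CDK inhibitor median was 1.21 with only plain _at probe sets. Of all genes, 735 were higher with the floor at the 40th percentile and 234 at the 60th; 91 were higher and 176 lower at the 75th; without a floor 2408 were higher and 1848 lower, and 2 list genes higher. At 1.5-fold 1710 of all genes were higher and 1058 lower, with 7 list genes each way; at 3-fold 56 were higher and 86 lower, with 0 list genes lower. Signals near the floor give only bounds.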
